A study of Arabidopsis thaliana with 12 samples.

Results

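HEMA3, CHLM and AT1G74470 are nuclear genes for enzymes of tetrapyrrole and chlorophyll synthesis, and they were followed here in the toc34 mutant of Arabidopsis thaliana. They were set by the loci AT2G31250, AT4G25080 and AT1G74470, and each stood alone on a spot. These are 3 of the 691 genes that the platform annotation pairs with a spot of their own. SIRB, a gene of the sirohaem branch of tetrapyrrole synthesis, also had its own spot and is described further below. Each of the 3 genes had 1 such spot, was listed on no other spot, and was measured above 0 on all 12 arrays. None of their values was at the upper limit of the scale.

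The study measured total RNA of toc34 plants on 6 arrays and of wild-type (WT) plants on 6 arrays, both in the ecotype Columbia 0 per the labels. Per the labels, protein import at the outer envelope of the chloroplast is impaired in the mutant. TOC34 is a GTPase of that envelope which binds precursor proteins as they arrive from the cytosol. The comparison thus addresses which transcripts differ when import into the chloroplast is impaired. The labels name no allele, tissue, age or growth condition and do not say whether each array had its own plants. The p-values thus measure only the spread between arrays, which may be technical. TOC34 and its paralog TOC33 had 0 spots in the annotation and are not analysed here, which leaves the genotypes unchecked at the mutated gene. None of 20 marker genes of leaf, root, flower and seed had a spot of its own, so the tissue was not checked either.

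Each array gave an intensity for 3439 spots, with 2784 to 2974 of them above 0. The summed intensity ran from 1988 to 3553 per array and was highest for replicate numbers 3 and 4 in both genotypes. At each replicate number the toc34 array had a lower sum than the WT array, as with 2402 against 2771 at number 1 and 1988 against 2685 at number 5. Arrays with neighbouring numbers (1 and 2, 3 and 4, 5 and 6) were more alike than other arrays of the same genotype, with correlations across spots of 0.957 to 0.980 against 0.920 to 0.949 in WT. The toc34 arrays correlated at 0.877 to 0.916 with their neighbours and at 0.806 to 0.835 otherwise. Levels are given below as the deposited intensity, which is linear, and differences as log2 differences, toc34 minus WT, after quantile normalization between arrays. A difference was called at a limma adjusted p under 0.05, adjusted by Benjamini-Hochberg across the 2768 tested spots.

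Tetrapyrroles are made in the plastid by enzymes that are encoded in the nucleus, translated in the cytosol and imported. The pathway starts from glutamyl-tRNA, which glutamyl-tRNA reductase, the product of the HEMA genes, commits to the synthesis of 5-aminolevulinic acid, the precursor of all tetrapyrroles. At protoporphyrin IX the pathway divides into a haem branch and a magnesium branch. In the latter, CHLM encodes the methyltransferase that converts magnesium-protoporphyrin IX to its monomethyl ester. AT1G74470 encodes geranylgeranyl reductase, which makes the phytyl chain of chlorophyll and of tocopherols.

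Of the 3 genes, 1 (HEMA3) was lower in toc34 at the threshold and 2 did not pass it. With the replicate number as a block (limma adjusted p = 0.0674 for HEMA3) or neighbouring numbers as a random block (0.128), 0 of 3 passed. Of all tested spots 36.5% were called with the replicate block and 22.6% with the random block. Without a block 18.9% of all tested spots were called lower, 17.2% higher and 36.0% in either direction. A count of 1 in 3 is thus near the share of calls on the whole array. On all arrays the 3 log2 differences lay close together, at -0.60 for HEMA3, -0.67 for CHLM and -0.54 for AT1G74470, beside a median of -0.05 over all tested spots. The value of CHLM rested largely on toc34 replicate 6, without which it was -0.15. Of the tested spots 26.7% had a lower difference than HEMA3, 24.3% a lower one than CHLM and 28.7% a lower one than AT1G74470. The SD of the normalized log2 level in toc34 was 0.33 for HEMA3, 1.36 for CHLM and 0.47 for AT1G74470. That of CHLM includes replicate 6 at -4.93, where the other toc34 arrays lay between -2.48 and -1.15.

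**Figure D1:**
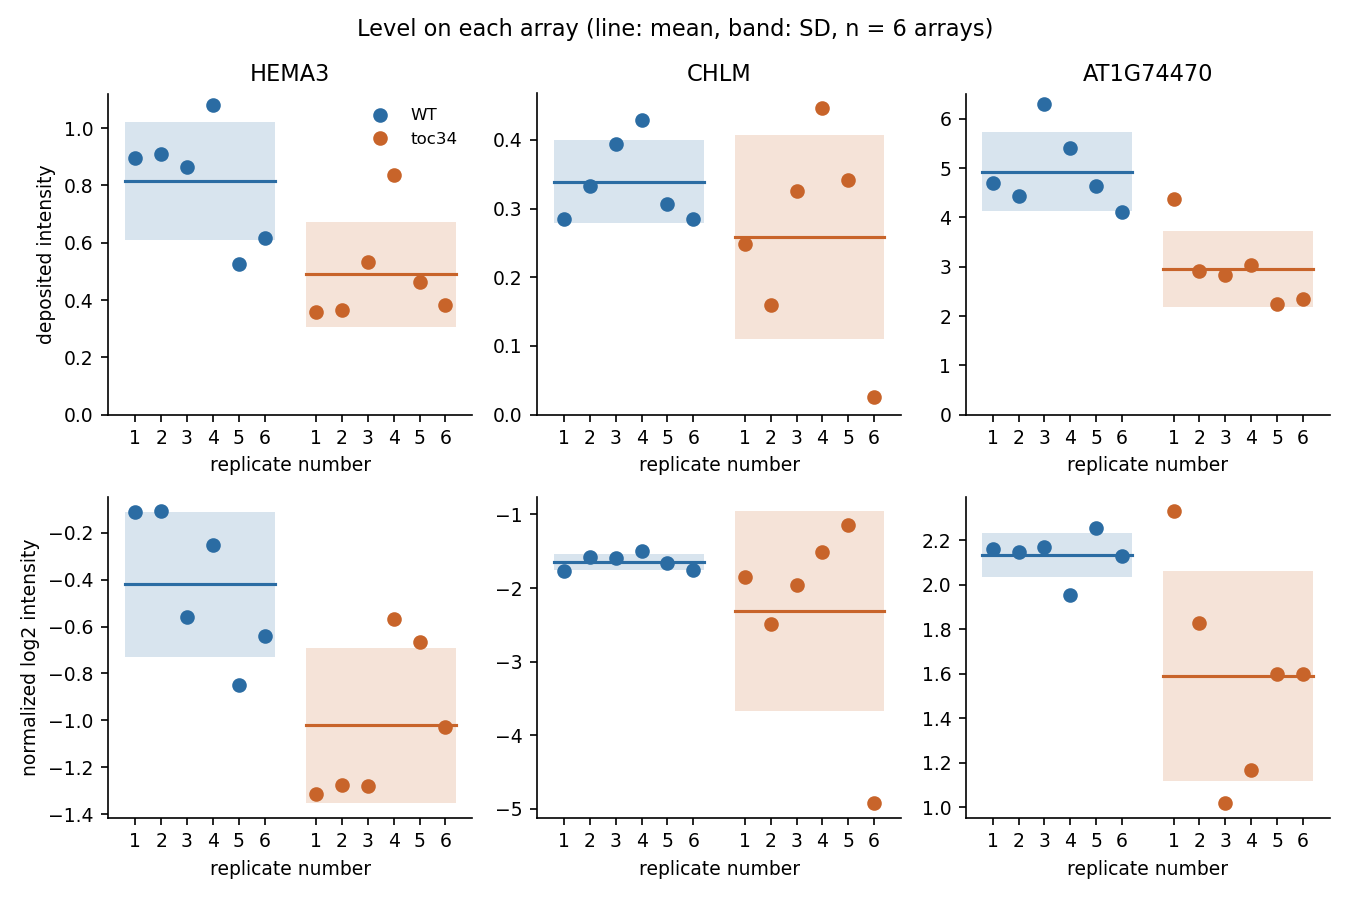
Level of the 3 genes on each array, as deposited intensity on a linear axis from 0 (top) and as normalized log2 intensity (bottom), by genotype and replicate number. Points are arrays, lines are means and bands are SDs over 6 arrays. The values of the genotypes overlap for each gene, and replicate 6 of toc34 is far below the other arrays for CHLM.

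HEMA3 stands at the entry of the pathway. Its intensity in WT ran from 0.526 to 1.08 with a median of 0.880, and in toc34 from 0.358 to 0.837 with a median of 0.424. Both genotypes overlapped, since toc34 replicate 4 was higher than WT replicates 5 (0.526) and 6 (0.618), and toc34 replicate 3 (0.534) was higher than WT replicate 5. The mean was 0.816 ± 0.206 in WT and 0.490 ± 0.183 in toc34 (SD, n = 6 arrays each). After normalization HEMA3 fell 1.52-fold (log2 difference -0.60, SE 0.20, 95% interval -1.03 to -0.17, limma adjusted p = 0.0310), a call that ended with the replicate number as a block (adjusted p = 0.0674). In RNA of whole samples, fewer cells with a transcript and less of it per cell cannot be told apart.

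The HEMA3 difference was uneven over the replicate numbers. Within numbers 1 and 2, where WT averaged 0.902 and toc34 0.362, the log2 difference was -1.18 (limma adjusted p = 0.0223). It was -0.52 (adjusted p = 0.285) within numbers 3 and 4 and -0.10 (adjusted p = 0.757) within numbers 5 and 6, where WT averaged 0.572 and toc34 0.424. Each of these fits had 2 arrays per genotype, with neighbouring numbers, which were more alike than other arrays. Their p-values thus measure only the spread between such arrays. A change in the difference between these pairs of numbers was not tested. The unevenness lay in both genotypes, as WT was lowest at numbers 5 and 6 and toc34 was lowest at numbers 1 and 2. The deposited intensity was lower in toc34 for 6 of 6 replicate numbers, at 0.400 to 0.883 of the WT array with the same number. The normalized level was lower for 5 of 6. The toc34 arrays had a lower summed intensity at each number, and the count in deposited intensity was not adjusted for this. Their median log2 intensity was lower than in WT at numbers 1, 2, 5 and 6. At numbers 3 and 4 it was higher, at -2.17 and -2.16 against -2.26 and -2.25 in WT. The share of all spots that were lower at every number was not counted.

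The call of HEMA3 rested on treating the arrays as 12 independent ones. Besides ending with either block, it ended with neighbouring numbers averaged (limma adjusted p = 0.181), at the same difference of -0.60. It also ended without WT replicate 1 (adjusted p = 0.0666), 2 (0.0679) or 4 (0.0648) and without toc34 replicate 1 (0.0582), 2 (0.0566) or 3 (0.0592), and by cyclic loess (0.0590). HEMA1 and HEMA2, the other HEMA genes, had no spot of their own, and whether their transcripts also bind the HEMA3 spot was not tested.

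CHLM acts in the magnesium branch. Its intensity in WT ran from 0.285 to 0.430 with a median of 0.320, and in toc34 from 0.0260 to 0.447 with a median of 0.288. The highest and the lowest value of all 12 arrays were both from toc34, in replicates 4 and 6, so the WT values lay inside the toc34 range. The mean was 0.339 ± 0.0603 in WT and 0.258 ± 0.149 in toc34 (SD, n = 6 arrays each). The log2 difference of -0.67 did not pass the test (SE 0.51, 95% interval -1.78 to 0.44, limma adjusted p = 0.330).

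A single array made up most of this difference. In toc34 replicate 6 the CHLM spot had an intensity of 0.0260, and 7.78% of the measured spots of that array were dimmer. On the other 11 arrays between 48.0% and 75.4% of the measured spots were dimmer. Without toc34 replicate 6 the log2 difference of CHLM was -0.15 (SE 0.22, 95% interval -0.62 to 0.33, limma adjusted p = 0.630). Its neighbour, toc34 replicate 5, had the highest normalized level of CHLM on any array, at -1.15 against -4.93 in replicate 6. That gap of 3.78 compares with gaps of 0.09 to 0.63 between neighbouring numbers in the other 5 pairs of arrays. The deposited intensity of CHLM was lower in toc34 for 4 of 6 replicate numbers, at 0.0913 to 1.11 of the WT array with that number, and the normalized level for 5 of 6.

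AT1G74470 acts late in chlorophyll synthesis. Its intensity in WT ran from 4.11 to 6.31 with a median of 4.67, and in toc34 from 2.24 to 4.37 with a median of 2.88. All toc34 arrays but replicate 1 were lower than every WT array, and replicate 1 (4.37) was higher than WT replicate 6 (4.11). The mean was 4.93 ± 0.799 in WT and 2.96 ± 0.764 in toc34 (SD, n = 6 arrays each). The log2 difference of -0.54 missed the threshold (SE 0.21, 95% interval -0.99 to -0.10, limma adjusted p = 0.0562).

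The call of AT1G74470 depended on the scaling and on 1 array. On the deposited scale the difference was -0.76 (limma adjusted p = 0.00999), beside a median of -0.20 for all spots. Centring the arrays on their medians gave -0.67 (adjusted p = 0.0123, median of all spots -0.11), and cyclic loess gave -0.35 (adjusted p = 0.137). Set against the median over all spots, its difference was -0.49 after quantile normalization, -0.56 on each of the deposited and centred scales and -0.30 by cyclic loess. Without toc34 replicate 1 it was -0.70 (adjusted p = 0.00800). The adjusted p was 0.265 with neighbouring numbers averaged, and a block for the replicate number gave 0.0644.

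AT1G74470 was also uneven over the replicate numbers, but not at the same ones as HEMA3. The log2 difference was -0.07 (limma adjusted p = 0.828) within numbers 1 and 2, -0.97 (adjusted p = 0.0341) within 3 and 4 and -0.59 (adjusted p = 0.0820) within 5 and 6. Here too each fit had 2 neighbouring arrays per genotype, and its p-value measures only the spread between such arrays. In WT the normalized level of AT1G74470 stayed within 0.30 on the log2 scale over 6 arrays, while in toc34 it spread over 1.31. Across all spots too the toc34 arrays were less alike than the WT arrays. Arrays without neighbouring numbers correlated at 0.806 to 0.835 in toc34 and at 0.920 to 0.949 in WT. On toc34 replicate 1 AT1G74470 had its highest normalized level of all 12 arrays, 2.33, and HEMA3 its lowest, -1.31. Where its toc34 level was lowest depended on the scale, with replicates 3 and 4 lowest after normalization and replicates 5 (2.24) and 6 (2.34) lowest in deposited intensity. The deposited intensity was lower in toc34 for 6 of 6 replicate numbers, at 0.450 to 0.929 of the WT array of the same number. The normalized level was lower for 5 of 6. As for HEMA3, the count in deposited intensity was not adjusted for the lower summed intensity of the toc34 array at each number.

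**Figure D2:**
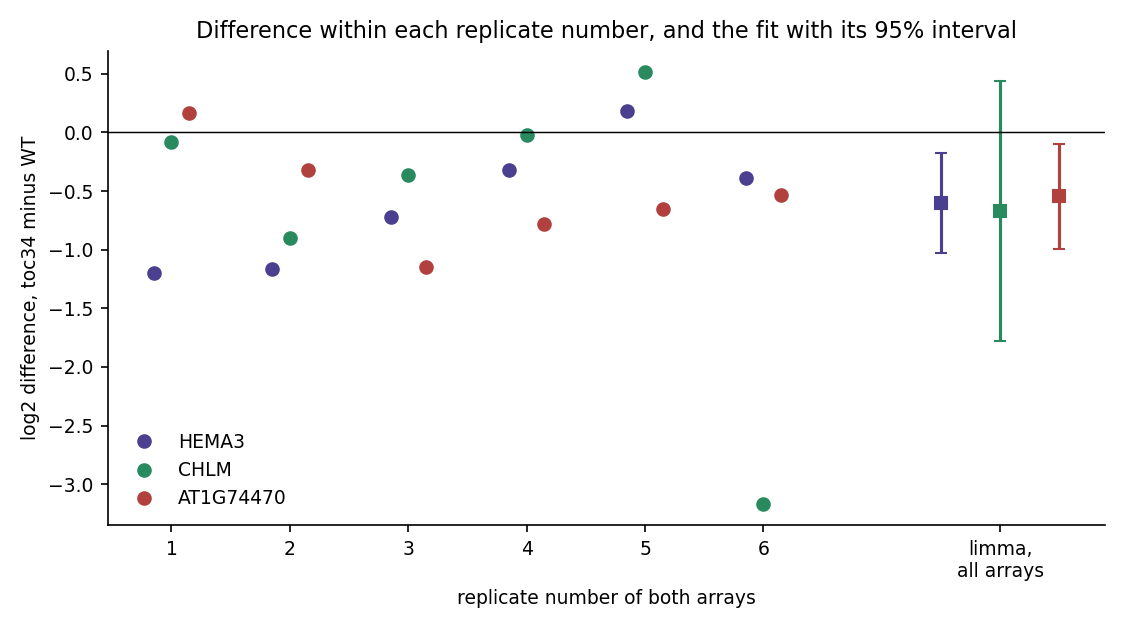
Normalized log2 difference, toc34 minus WT, between the arrays that share a replicate number, and the limma difference over all 12 arrays with its 95% interval (right). For each gene 5 of 6 numbers lie under 0. HEMA3 is lowest at numbers 1 and 2, AT1G74470 at 3 and 4, and CHLM at number 6.

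The plot of each setting shows how far these differences move. The sign was negative for all 3 genes in every limma fit that was run. All fits reuse the same arrays, and those with blocks, averages or robust eBayes return the same difference. The common sign is thus in part fixed and is given as a description. CHLM did not pass the threshold in any limma fit, HEMA3 lost its call in 14 of 28 alternative limma fits, and AT1G74470 gained one in 7 of 28.

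**Figure D3:**
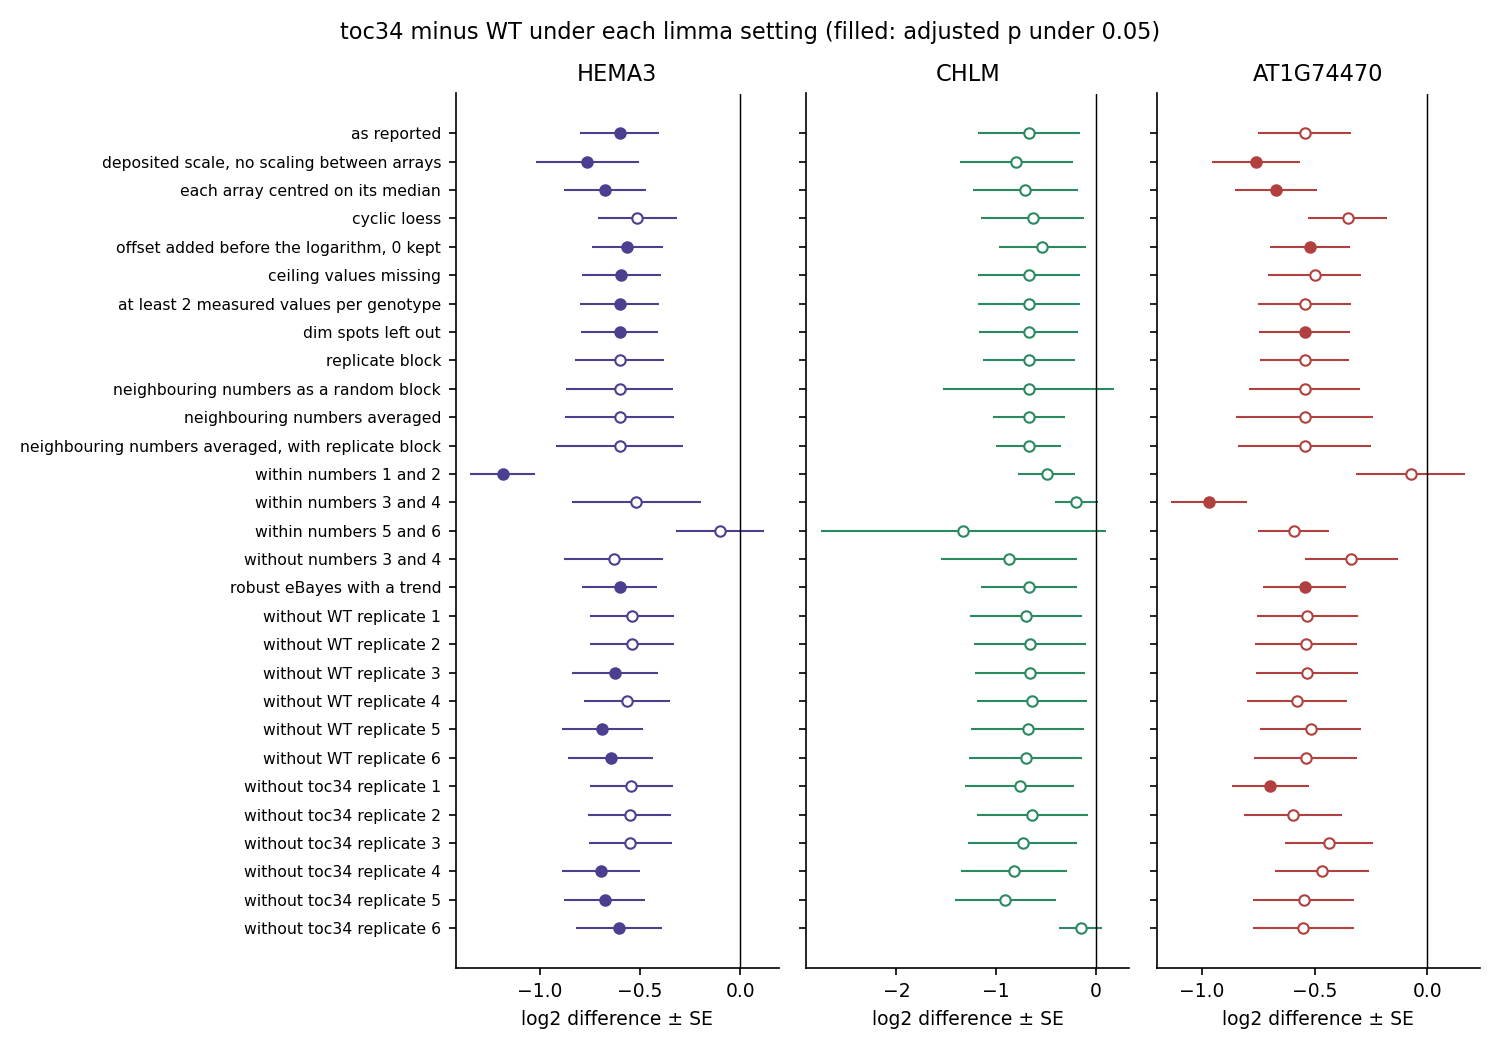
Log2 difference, toc34 minus WT, with its SE for the 3 genes under each limma setting, by row. Filled points have an adjusted p under 0.05. All points lie under 0. HEMA3 moves furthest within numbers 1 and 2, AT1G74470 within 1 and 2, and CHLM within 5 and 6.

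The rest of the pathway was thinly covered by the array. The groups set up around the members, 6 in all, covered the common trunk, the chlorophyll branch, the haem, bilin and sirohaem branches, chlorophyll breakdown, regulators of the enzymes, and the supply of the phytyl chain with tocopherol synthesis. Of their 71 genes 5 had a spot of their own, all 5 were tested, 2 fell (HEMA3 and NTRC) and 0 rose, where 18.9% of all tested spots were lower and 36.0% were called in either direction. With the replicate number as a block or with the random block, HEMA3 dropped out and NTRC was the 1 gene called. These fits called 36.5% and 22.6% of all tested spots. The median log2 difference of the 5 was -0.60 beside -0.05 for all tested spots. By group these were 1 of 16 trunk genes (HEMA3, lower), 2 of 14 in the chlorophyll branch (CHLM and AT1G74470, neither called), 1 of 9 in the haem group and 1 of 9 regulators. Chlorophyll breakdown (9 genes) and the phytyl and tocopherol group (14 genes) had 0 genes on spots of their own.

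Among the regulators, NTRC was the other gene that fell. It encodes the plastid NADPH-thioredoxin reductase C, which is known to reduce enzymes of chlorophyll synthesis, the CHLM methyltransferase and glutamyl-tRNA reductase among them. Its intensity ran from 0.355 to 0.596 in WT (median 0.502) and from 0.116 to 0.166 in toc34 (median 0.154). All toc34 arrays were thus below all WT arrays, on the deposited and on the normalized scale. The groups were apart, in one direction or the other, for 20.6% of the tested spots in deposited intensity and for 23.6% in normalized log2 level. NTRC fell 2.97-fold (log2 difference -1.57, SE 0.17, 95% interval -1.93 to -1.21, limma adjusted p = 1.91e-05), from 0.485 ± 0.0982 to 0.148 ± 0.0188 (SD, n = 6 arrays each). The call of NTRC held with neighbouring numbers averaged (adjusted p = 0.0184) and with any 1 array left out, where the difference ran from -1.64 to -1.50.

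SIRB, the ferrochelatase that ends sirohaem synthesis, was the single gene of the haem group with a spot of its own. Its intensity ran from 0.109 to 0.240 in WT (median 0.180) and from 0.0609 to 0.205 in toc34 (median 0.168), so the genotypes overlapped. Its log2 difference of -0.28 did not pass the test (SE 0.30, 95% interval -0.92 to 0.36, limma adjusted p = 0.496).

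Spots shared by several genes were read only where all of their genes stood in one group. None of the 4 such spots was called. The 2 spots of the trunk, with 2 genes each, had log2 differences of -0.34 (SE 0.16, limma adjusted p = 0.116) and 0.51 (SE 0.65, adjusted p = 0.591). The latter was dim, with WT values from 0.0139 to 0.221, and was listed at 0 on 1 toc34 array, which dropped out of its fit. A pair of spots annotated to the same 2 regulators gave -0.27 (SE 0.14, adjusted p = 0.148) and -2.06 (SE 1.2, adjusted p = 0.195). The spot with the lower difference was listed at 0 on 2 toc34 arrays, which are missing from its fit, and its WT values ran from 0.00958 to 0.250.

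**Figure D4:**
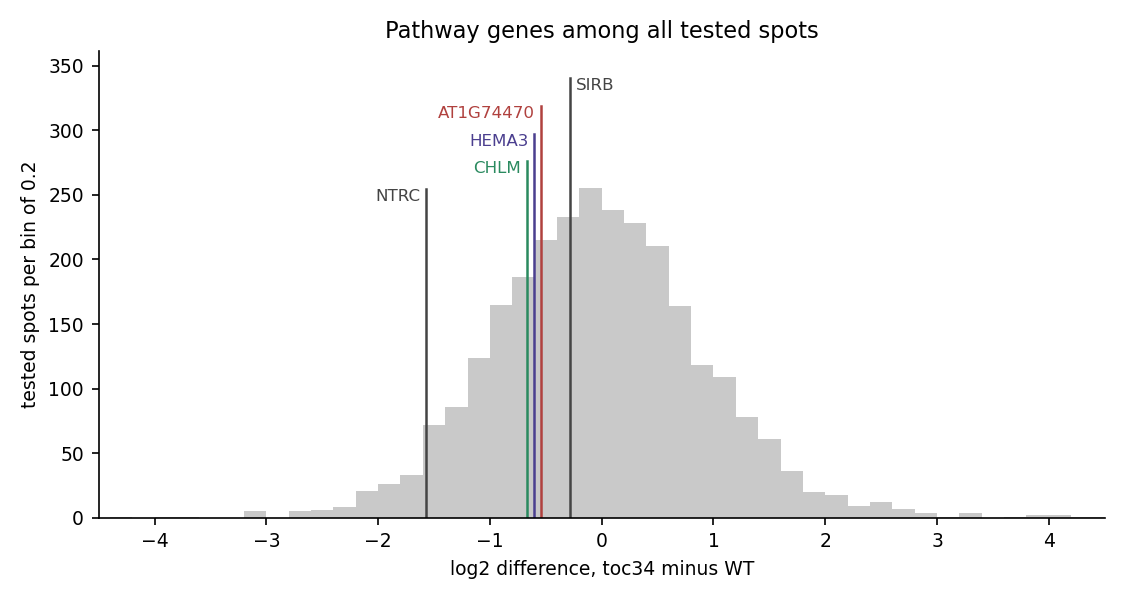
Distribution of the log2 difference, toc34 minus WT, over the 2768 tested spots in bins of 0.2 (grey; 1 spot lies beyond the axis), with the 5 pathway genes that had a spot of their own. CHLM, HEMA3 and AT1G74470 stand close together left of the centre, NTRC at -1.57 and SIRB at -0.28. Without toc34 replicate 6 CHLM had a difference of -0.15.

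The genes with the most similar course over the 12 arrays were sought among 477 other genes with a spot of their own measured on every array. Likeness was the root mean square difference between log2 profiles, each centred on its own mean, so that a smaller value means a closer course. For HEMA3 these were AT1G67820 (0.19), AT3G06570 (0.21) and AT5G03900 (0.25), where the median over all 477 genes was 0.71. All 3 were called lower in toc34, with log2 differences of -0.81, -0.60 and -0.71, which their likeness on these same arrays already fixes in part. For AT1G74470 they were AT1G13990 (0.18), AT1G21660 (0.22) and LHB1B2 (0.23), the last of which encodes a chlorophyll-binding protein of the light-harvesting antenna, against a median of 0.72. These 3 had log2 differences of -0.66, -0.40 and -0.45, and none was called (limma adjusted p from 0.0509 to 0.113).

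These genes were picked for their likeness on the same 12 arrays, so what they share with a member over the arrays is set by the choice and is given as a description. After normalization AT1G13990 and LHB1B2 were lowest at toc34 replicates 3 and 4, as AT1G74470 was, while AT1G21660 was lowest at replicates 3 and 6. All 3 genes overlapped between genotypes on that scale. In deposited intensity AT1G21660 overlapped too, and AT1G13990 and LHB1B2 did not, where 20.6% of all tested spots did not. Their means were 1.80 and 1.01 for AT1G13990 and 28.3 and 13.99 for LHB1B2 in WT and toc34. For CHLM the closest genes were AT1G74730 (0.40), AT1G24360 (0.46) and AT5G02710 (0.61), against a median of 1.11. All 3 had their lowest normalized level on toc34 replicate 6, as CHLM did. Among each other the 3 pathway genes had values of 0.50 between HEMA3 and AT1G74470, 0.87 between HEMA3 and CHLM and 0.96 between CHLM and AT1G74470. The genes named above were picked as the closest of 477, so these values are set beside the medians. The value of 0.50 was under the medians of HEMA3 (0.71) and AT1G74470 (0.72). It was above the root mean square of each profile about its own mean, 0.42 for HEMA3 and 0.41 for AT1G74470. By this measure a flat profile lay closer to HEMA3 and to AT1G74470 than they lay to each other. Both values with CHLM were under the median of CHLM (1.11) and above those of HEMA3 and AT1G74470.

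**Figure D5:**
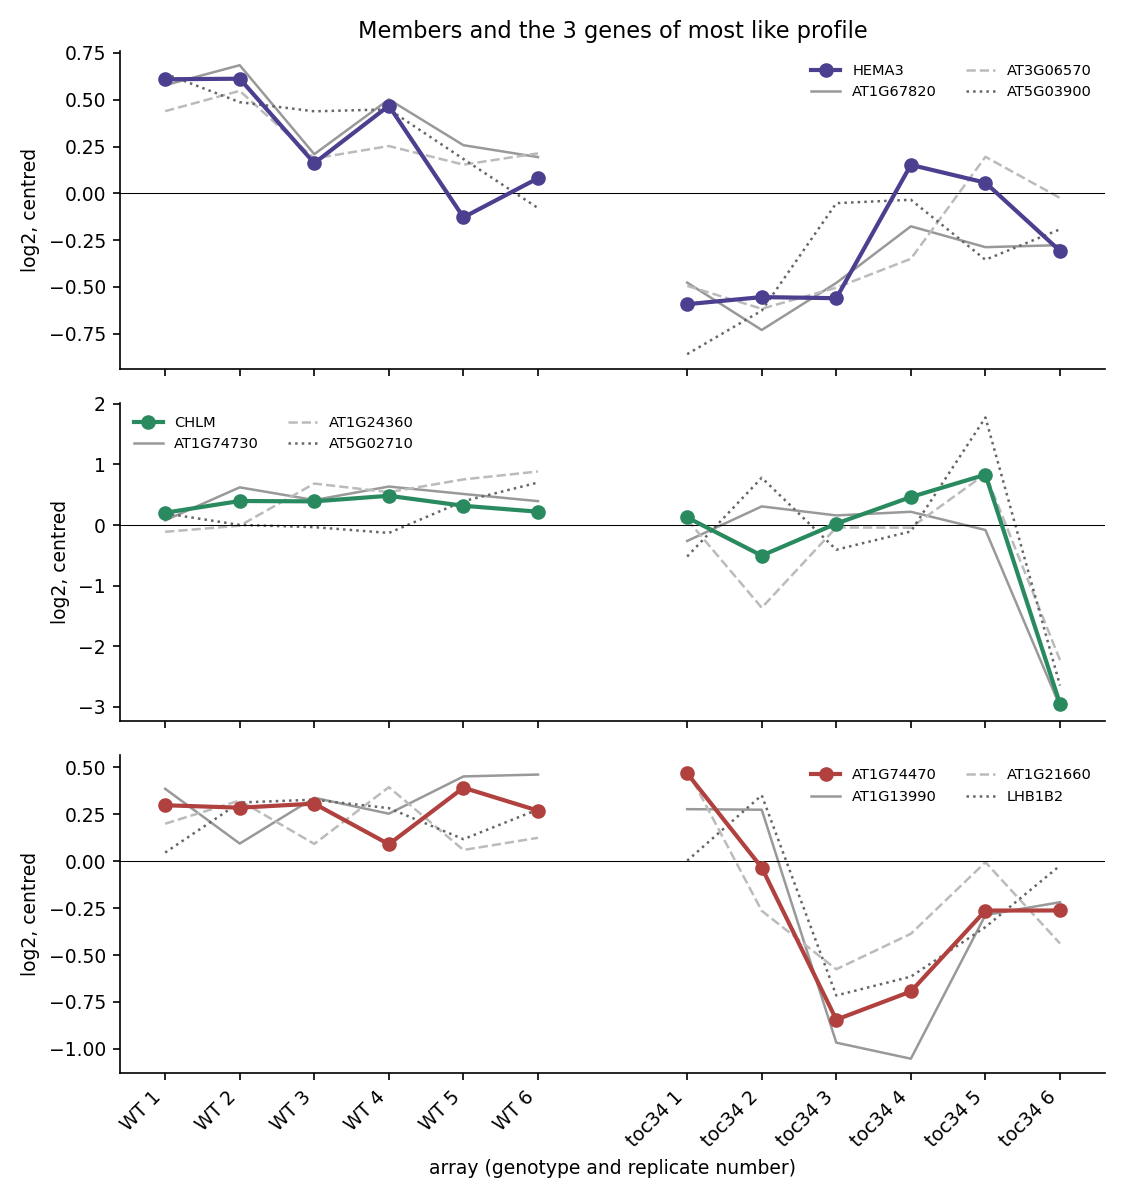
Normalized log2 level centred on its mean over the 12 arrays, for HEMA3 (top), CHLM (middle) and AT1G74470 (bottom) in colour and for the 3 genes of closest course in grey. Lines only join the arrays, which have no order. CHLM and its 3 closest genes share the low value on toc34 replicate 6, and AT1G74470 is lowest on toc34 replicates 3 and 4.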

How the data were processed

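Per the labels, total RNA of 6 toc34 and 6 WT samples was measured. The deposited values are taken as linear intensities from the values themselves, which run from 0 to just under 100; background correction, scaling, labelling and scanner are not given in the sources used here. How the authors treated background can set dim spots to 0 and widen the spread just above it.

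Values of 0 were set to missing. The log2 values, computed from the deposited intensities, had array medians up to 0.50 apart and were quantile-normalized. Spots with at least 4 measured values per genotype were tested (2768 of 3439) with limma 3.58.1 in R 4.3.3 (lmFit and eBayes, two-sided, no covariate). The procedure was tested on simulated data with independent arrays, which lack the likeness of neighbouring numbers seen here. Genes were named from the platform annotation of 2016 through a RefSeq gene table of TAIR10.1, which matched 690 of 692 single-gene spots. The platform's genome build is not named, so no coordinates are given.

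Arrays that share a number deviated together from the means of their genotypes, with correlations across spots of 0.134 to 0.274, and each WT array correlated best with the toc34 array of its own number. The numbers were therefore taken as pairing the arrays, from the values and not the labels, and the fit with that block stands beside the results it changes. Alternatives were other scalings, an offset, ceiling values as missing, other filters, an exact permutation test, blocks and averages of replicate numbers, robust eBayes, and each array left out. The members, gene groups and alternatives were chosen with earlier results of these data known. Named genes were the members, every group gene with its own spot, and for each member the 3 genes of closest profile.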

Additional observations from a re-analysis of the deposited data

Results flagged for a closer look

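Each named gene, each shared spot measured on all arrays of a genotype, and 3 summaries of the arrays (summed intensity, spots above 0, median), gave a set of 6 arrays per genotype, 40 sets in all. An array stood apart when the ratio of its gap to the nearest array over the whole range exceeded Dixon's critical value. This held in 2 sets, and chance alone gives about 2.

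CHLM stood apart in toc34 replicate 6, with a normalized log2 level of -4.93 where the other 5 toc34 arrays lay between -2.48 and -1.15 (gap to range 0.647). AT1G74730, chosen above because its course was closest to that of CHLM, stood apart on the same array, at -6.00 against -3.27 to -2.70 (0.827), so it is no second observation. Over all 2337 spots measured on every array, toc34 replicate 6 lay far below the others by the same measure in 32 spots, or 1.37%, while the other toc34 arrays did so in 13 to 31 spots and the WT arrays in 7 to 21.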

How the results depend on the processing

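All 30 alternatives kept the sign of each of the 3 genes, and CHLM stayed short of the threshold in all of them (adjusted p from 0.188 to 0.635). The alternatives reuse the same arrays, and several return the same difference, so the common sign is in part fixed. HEMA3 kept its call in 15 of 30. Its difference where the call ended was -0.51 by cyclic loess, -0.60 with the replicate block (limma adjusted p = 0.0674), with neighbouring numbers as a random block, averaged, and averaged with the block, -0.52 within numbers 3 and 4, -0.10 within 5 and 6, and -0.63 without numbers 3 and 4. In the exact permutation test on deposited intensity it was -0.73 (adjusted p = 0.0641), the log2 ratio of means. With 1 array left out it ran from -0.69 to -0.54. AT1G74470 gained a call unscaled (-0.76), after centring (-0.67), with the offset (-0.52), without dim spots and with robust eBayes (both -0.54), within numbers 3 and 4 (-0.97), and in the exact permutation test on scaled (-0.64) and deposited intensity (-0.74). With 1 array left out it ran from -0.70 to -0.43. The count of 997 called spots became 625 with the random block, 381 averaged, 226 averaged with the block, 558 within numbers 5 and 6 and 620 at a threshold of 0.01. With 1 array left out it ran from 863 to 996. Increases made up 47.6% of calls, and 36.2% on the deposited scale. Averages and fits within numbers leave fewer values; otherwise the cause was not tested. Averaging with the block and leaving out numbers 3 and 4 were added after the data were seen. The precision of all values is limited by 6 arrays per genotype that may not be independent, and that of CHLM by its dim value on 1 array.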
